A study of Homo sapiens with 6 samples.

Results

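The peaks described here are those on the first 50 Mb of chromosome 5 (chr5, GRCh38), a stretch that holds the short arm and satellite DNA of the centromere region. Members were chosen by position, as peaks of the 4 deposited lists with a midpoint below 50 Mb, and the stretch itself was picked with the peak numbers of these lists known. They numbered 1874 of 36932 peaks in all, at 1593 distinct positions. The lists are named by their control and replicate number, so that Input list 1 is drawn in the plots as replicate 1 against Input. Members numbered 444 in Input list 1, 423 in LacZ list 1, 981 in Input list 2 and 26 in LacZ list 2, and values given without names follow this order.

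The cells were HCT116, a human colorectal carcinoma cell line, used without genetic change or drug treatment, fixed in formaldehyde and sonicated. ChIRP-seq, in which chromatin is isolated through an RNA and its DNA is sequenced, was done with 9 DNA probes against CRLM1 (gene LINC01767), a long noncoding RNA (lncRNA), to find the chromatin sites that it touches. The 6 libraries formed 3 groups with 2 replicates each, namely the CRLM1 pull-down, a control pull-down with bacterial LacZ probes, and input chromatin without pull-down. Each list compared 1 CRLM1 library with the Input or LacZ library of the same number, so both lists of a replicate share their pull-down library and are not independent.

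A lncRNA can reach chromatin by pairing with DNA, through proteins or by staying near its own gene, and ChIRP records the sum of these contacts together with whatever DNA the probes or beads retain. LINC01767 lies on chromosome 1, so every site on chr5 is distant from its gene. The short arm of chr5 is known for a long gene-poor stretch with the genes of the type II cadherins, calcium-dependent adhesion molecules, and for a cluster of cytokine and hormone receptor genes nearer the centromere. Satellite repeats near centromeres are short units copied in tandem, and reads from them are hard to place.

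The sequences of 4 sites show what kinds of DNA the lists named. They are a site called in both LacZ lists and stretches of the sites that scored highest among the members of 3 lists. All are written 5′ to 3′ on the plus strand of GRCh38, in lower case. Capitals mark a run of 12 or more T in the first, at chr5:33250846-33251035, and GGTTGG in the second, at chr5:31364089-31364328. Capitals mark runs of 6 or more A in the third, at chr5:42709924-42710223, and ATTCC in the fourth, at chr5:49666174-49666333.
Site in both LacZ lists, in ENSG00000250697: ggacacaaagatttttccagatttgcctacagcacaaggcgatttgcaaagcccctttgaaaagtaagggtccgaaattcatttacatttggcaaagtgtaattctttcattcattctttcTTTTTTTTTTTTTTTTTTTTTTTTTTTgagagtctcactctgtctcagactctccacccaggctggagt
Highest score, LacZ list 1, between CDH6 and DROSHA: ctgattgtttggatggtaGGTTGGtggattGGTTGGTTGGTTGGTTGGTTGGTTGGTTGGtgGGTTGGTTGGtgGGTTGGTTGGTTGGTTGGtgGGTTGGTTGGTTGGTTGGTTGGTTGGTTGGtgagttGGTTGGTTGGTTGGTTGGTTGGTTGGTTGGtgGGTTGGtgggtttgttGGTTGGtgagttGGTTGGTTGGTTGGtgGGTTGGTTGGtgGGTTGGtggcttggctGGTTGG
Highest score, LacZ list 2, in GHR: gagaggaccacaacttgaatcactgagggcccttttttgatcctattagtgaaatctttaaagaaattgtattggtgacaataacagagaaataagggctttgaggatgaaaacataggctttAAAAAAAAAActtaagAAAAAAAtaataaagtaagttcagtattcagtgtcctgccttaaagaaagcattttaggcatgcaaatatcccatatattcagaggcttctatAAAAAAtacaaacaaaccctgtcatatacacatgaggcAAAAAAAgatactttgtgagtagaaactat
Highest score, Input list 1, beside the centromere: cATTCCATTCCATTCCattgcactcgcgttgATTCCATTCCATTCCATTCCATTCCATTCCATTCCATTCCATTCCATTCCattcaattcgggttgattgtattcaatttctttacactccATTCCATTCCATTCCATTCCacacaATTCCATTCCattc

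Peaks were denser on the first 50 Mb than on the remainder of chr5 in every list. Per Mb of sequence without assembly gaps, Input list 1 had 8.91 peaks on the first 50 Mb and 3.90 on the rest of chr5. LacZ list 1 had 8.49 and 3.92. Input list 2 had 19.7 and 6.56, and LacZ list 2 had 0.522 and 0.107. The ratio was 2.29 and 3.00 in the Input lists of replicates 1 and 2, with a mean of 2.64 ± 0.505 (SD, n = 2). In the LacZ lists it was 2.17 and 4.90, with a mean of 3.53 ± 1.93 (SD, n = 2). The last value rests on 26 peaks against 14. The stretch has 49.84 Mb of ungapped sequence, which is 27.5% of chr5, and it held 46.4%, 45.1%, 53.2% and 65.0% of the chr5 peaks in the order of the lists given above. Because the members were chosen by position with these numbers known, the ratios are a description and no test was made. The lists carry no read counts of the input libraries, so the number of copies of the short arm in these cells was not measured here, and its part in the ratios was not tested.

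The rest of chr5 was nearer to the other chromosomes in density than the first 50 Mb were. Against all other main chromosomes, the first 50 Mb were 2.93, 2.50, 3.63 and 4.45 times as dense in the same order of lists. The rest of chr5 was 1.28, 1.15, 1.21 and 0.909 times as dense. It still stood near the top in the large lists. Only chromosome 8 was denser in Input list 1, only chromosomes 17, 9 and 1 in LacZ list 1, and only chromosomes 13, 8 and 9 in Input list 2. In each list all 23 other chromosomes, averaged over their whole length, had a lower density than the first 50 Mb. Stretches of like length on them were not compared, and the first 50 Mb were picked with their peak numbers known. The densest one was chromosome 8 in Input list 1, at 5.61 peaks per Mb. It was chromosome 17 in LacZ list 1, at 4.52, chromosome 13 in Input list 2, at 6.90, and chromosome 15 in LacZ list 2, at 0.189.

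**Figure D1:**
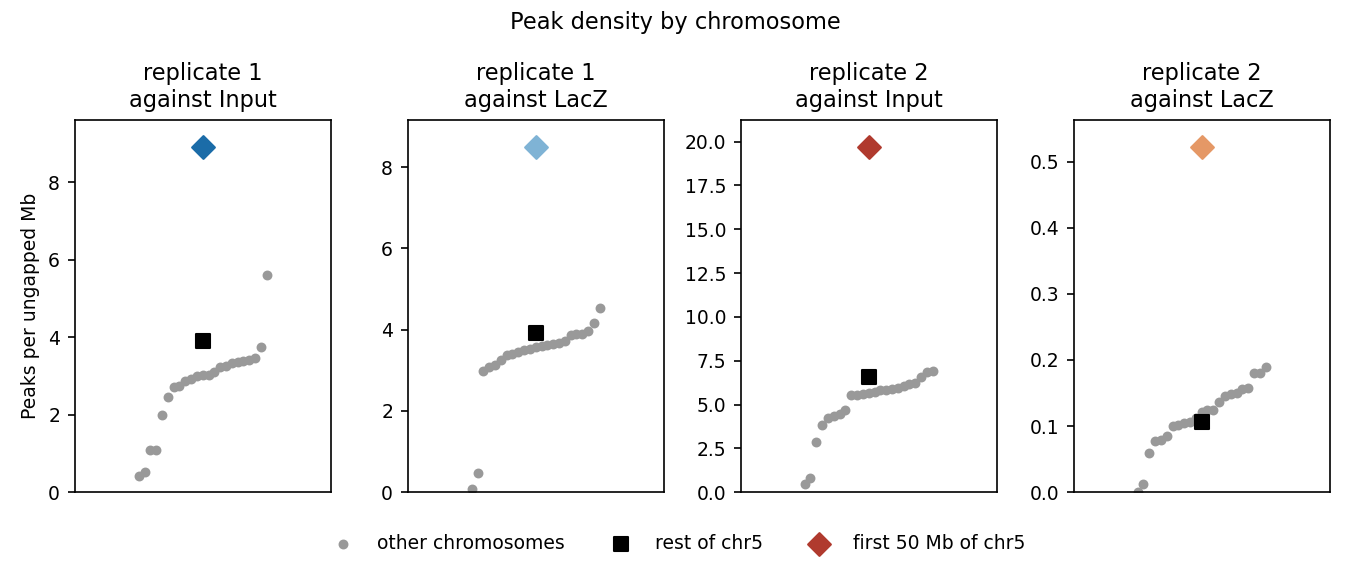
Peaks per ungapped Mb in each of the 4 lists, with an own linear axis per list. Grey points are the 23 other chromosomes in order of density, each averaged over its whole length, and the black square is the rest of chr5. The coloured diamond is the first 50 Mb of chr5, picked with its peak numbers known, which lies above every other point in all lists.

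The change along chr5 came next to the centromere. Counted in 9 windows of 5 Mb up to 45 Mb, Input list 1 had 17 to 60 peaks per window with a median of 49, while the 26 full windows of the rest of chr5 had 8 to 33 with a median of 20.5. LacZ list 1 had 32 to 60 with a median of 43 before 45 Mb, and 11 to 28 with a median of 19 after 50 Mb, so its windows did not overlap. Input list 2 had 62 to 162 with a median of 99, and 19 to 47 with a median of 33, again without overlap. In Input list 1 the ranges overlapped, the low window being the first 5 Mb. In LacZ list 2 the windows held 0 to 5 peaks before 45 Mb and 0 to 2 after 50 Mb. The window from 45 to 50 Mb had 24, 12, 34 and 0 peaks in the order of the lists.

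**Figure D2:**
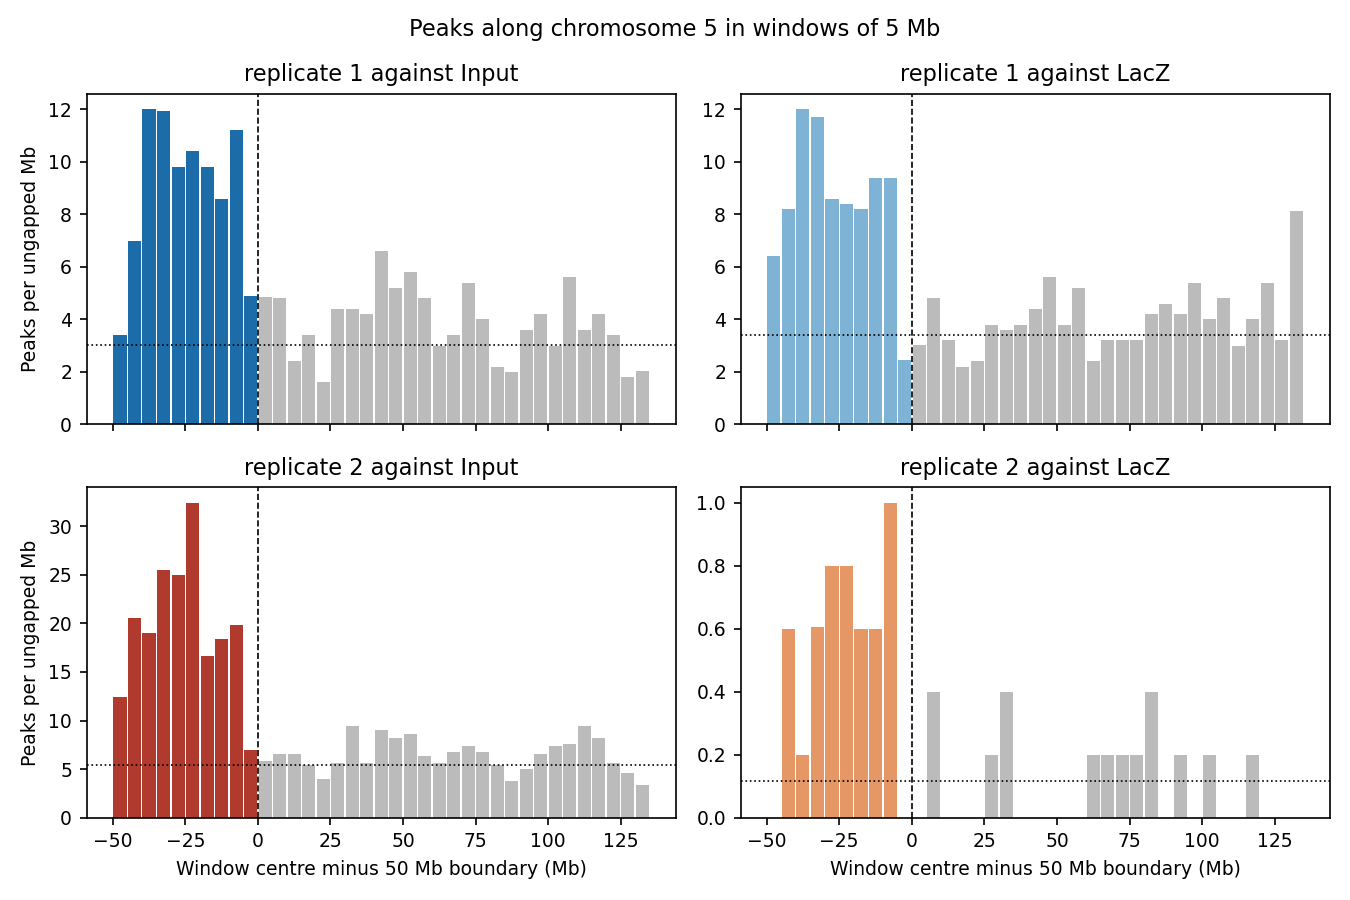
Peaks per ungapped Mb in windows of 5 Mb along chr5, plotted by the distance of the window's centre from the 50 Mb boundary (dashed line). Coloured bars are the first 50 Mb, grey bars the rest of chr5, and the dotted line is the mean density of the other chromosomes in that list. The step lies at the last coloured window in the 3 large lists.

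At the boundary of the selection, the last member of the Input lists was a satellite peak with a score of 795.49 in replicate 1 and 283.19 in replicate 2. The scores here are the authors' values from the peak caller, with a floor of 50 and no stated scale. The first peaks past 50 Mb were at chr5:51148804-51149123 with a score of 60.31 in Input list 1, and at chr5:50336912-50337321 with 53.07 in Input list 2. In the LacZ lists the last members were at chr5:46241130-46241518 with 55.43 in replicate 1 and at chr5:44071172-44071651 with 52.44 in replicate 2. The first LacZ-called peaks outside were at chr5:51440021-51440356 with 50.03 and at chr5:56090876-56091383 with 52.9. No list therefore had a peak within 100 kb of the boundary on either side.

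Median scores were close to those on the rest of chr5, while high scores were more numerous in the Input lists. Median scores on the first 50 Mb were 56.17 in Input list 1 and 58.91 in Input list 2, beside 56.65 and 57.61 on the rest of chr5. Against LacZ they were 59.16 and 57.995, beside 58.39 and 58.04. Of the members, 9, 14, 29 and 0 scored 100 or more, as did 5, 14, 5 and 0 peaks on the rest of chr5. As shares these are 2.03%, 3.31% and 2.96% in the 3 large lists, beside 0.977%, 2.72% and 0.580% on the rest. In both Input lists they include the satellite peaks above 49 Mb, which scored 795.49, 253.3 and 165.07 in Input list 1. Median widths were 393.5, 405, 408 and 543.5 bp.

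Nearly the whole stretch carried peaks in the large lists. Of the 50 bins of 1 Mb, 47 held a peak in both replicate 1 lists and 48 in Input list 2. Over all bins of the genome with at least 500 kb of sequence, 83.0%, 88.5% and 92.4% held one in these 3 lists. In LacZ list 2, 20 of 50 bins held a peak, and 11.3% of bins did so genome-wide. The bins from 47 to 48 Mb and from 48 to 49 Mb, which carry no annotated gene, had no peak in any list.

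Peaks were most frequent in the gene-poor cadherin stretch in Input list 2. Its fullest bins were 27 to 28 Mb with 37 peaks and 26 to 27 Mb with 36, which together hold CDH9, followed by 24 to 25 and 25 to 26 Mb with 33 each and 8 to 9 Mb with 32. Input list 1 instead had its fullest bins at 11 to 12 Mb, most of which is the CTNND2 gene, and 13 to 14 Mb, with 17 peaks each, while the bins at 12, 31, 39 and 45 Mb had 16. LacZ list 1 had 16 in the bin from 39 to 40 Mb, 15 from 19 to 20 Mb and 14 from 10 to 11 Mb, followed by 13 in the bins at 11, 13, 23 and 41 Mb. LacZ list 2 had at most 3, from 26 to 27 Mb, and 2 in the bins at 17, 22, 37 and 43 Mb.

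Between 18 and 31 Mb, where only 5 protein-coding genes lie, Input list 2 had 28.0 peaks per Mb and Input list 1 and LacZ list 1 had 11 and 9.08. In the 2 Mb at the chromosome's end, which hold 27 protein-coding genes and have a GC content of 52.7%, the density was 0.503 in Input list 1, 6.03 in LacZ list 1 and 7.54 in Input list 2. From 31 to 46 Mb, with 73 protein-coding genes, it was 10.0, 9.13 and 18.1. Between 2 and 18 Mb it was 8.90, 9.66 and 20.0. The 2 Mb at the end were thus below the stretches between 2 and 46 Mb in all 3 lists, and the gene-poor stretch was the densest of them in both Input lists but not in LacZ list 1. These stretches were drawn after the bins had been seen.

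Peak numbers per bin were correlated between lists that share no library. Across the 50 bins, Input list 1 and Input list 2 had a Pearson r of 0.640 and a Spearman rho of 0.619. LacZ list 1 and Input list 2 had r = 0.609 and rho = 0.532. With the bins from 46 to 50 Mb left out, the second r was 0.375. On the 131 bins of the rest of chr5, r was 0.181 and −0.0920 for the same pairs. Bins with lower GC content had more peaks in the Input lists (r = −0.531 in replicate 1 and −0.571 in replicate 2) and less clearly so in LacZ list 1 (r = −0.170). The number of protein-coding genes per bin went with r = −0.239, −0.233 and 0.110 in these lists. All of these values are descriptions over neighbouring bins of the same libraries, and have no p.

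**Figure D3:**
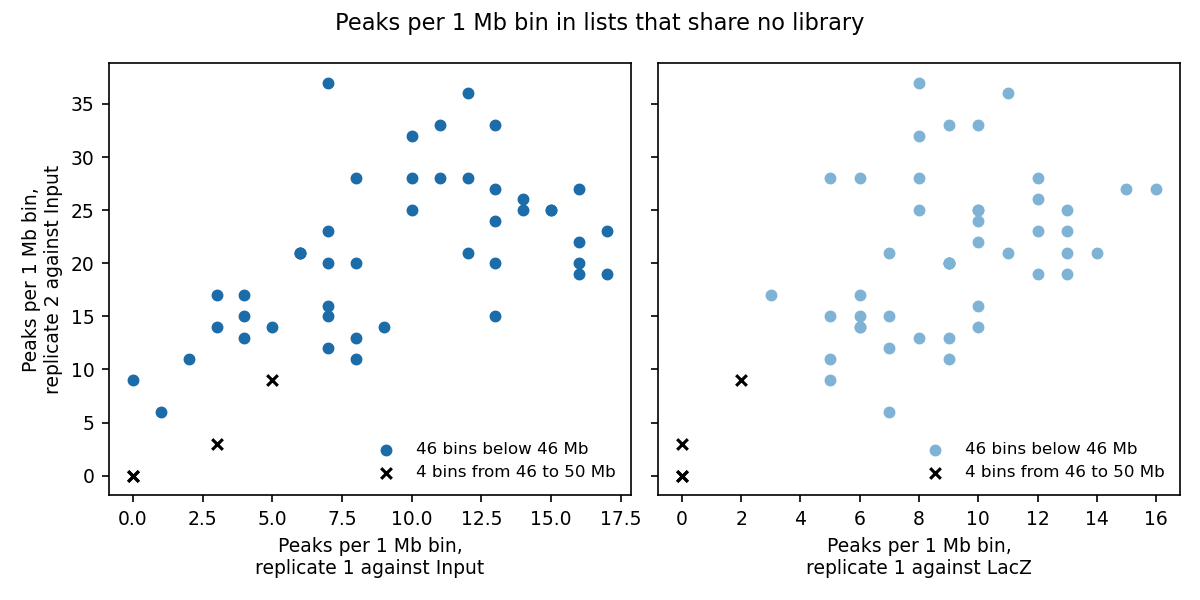
Peaks per 1 Mb bin of the first 50 Mb in Input list 2 (vertical axis) against Input list 1 (left) and LacZ list 1 (right). Each point is 1 bin, and crosses are the 4 bins from 46 to 50 Mb, which lie at the low end of all 3 lists.

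Although whole bins resembled each other, the replicates seldom named the same site. Against Input, 12 of 444 replicate 1 members (2.70%) shared at least 1 bp with a replicate 2 peak, and 12 of 981 replicate 2 members (1.22%) with a replicate 1 peak. Over the main chromosomes these shares were 1.73% and 0.936%, and on the rest of chr5 4 of 512 and 4 of 862 peaks were shared. Against LacZ, 2 of 423 members (0.473%) of replicate 1 and 2 of 26 (7.69%) of replicate 2 were shared, beside 0.0582% and 1.65% over the main chromosomes and none of 515 and 14 on the rest of chr5. Density differs between these stretches too, and its part in the shares was not tested. Without the satellite peaks above 49 Mb, 9 of 441 Input-called members of replicate 1 were shared (2.04%), and 9 of 978 of replicate 2 (0.920%).

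Within a replicate the controls mattered to a different degree. In replicate 1, 255 members were called against both controls, all with identical start and end. They made up 57.4% of the members in Input list 1 and 60.3% of those in LacZ list 1. Over the main chromosomes the shares were 50.3% and 45.6%. In replicate 2, all 26 LacZ-called members were also called against Input, where 94.8% were so genome-wide, but they were 2.65% of the Input-called members, beside 2.05% genome-wide. These pairs of lists share the pull-down library, so the overlap is no separate evidence of a site.

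Joining overlapping members gave 14 sites called in both replicates, of which 1 was in all 4 lists, 4 were in 3 lists and 9 in 2. The site in all 4 lists was in intronic sequence of ENSG00000287176, which is annotated as lncRNA. The closest protein-coding gene was CDH6, at a distance of 515196 bp. The 4 lists gave it scores of 61.45, 66.33, 138.5 and 69.62.

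The other site in both LacZ lists was chr5:33250768-33251223, in introns of the overlapping lncRNA genes ENSG00000250697 and LINC02160. It scored 87.93 in LacZ list 1, 127.76 in Input list 2 and 78.63 in LacZ list 2, and was not called in Input list 1. The 190 bases of the replicate 2 peak hold the long run of T printed above.

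The other 3 sites in 3 lists, chr5:8812997-8813860, chr5:23404993-23405758 and chr5:44958503-44958968, were called in replicate 1 against both controls and in Input list 2. The middle one lay 37828 bp from PRDM9, the histone methyltransferase that places meiotic recombination, and scored 67.45, 59.0 and 56.02. The first scored 69.09, 51.41 and 51.0, at 221173 bp from SEMA5A, and the last 76.96, 74.82 and 50.57, at 138075 bp from MRPS30. In all 3 the replicate 2 score stayed close to the floor of 50.

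Of the 9 sites in 2 lists, 6 lay below 49 Mb. LacZ list 1 and Input list 2 shared an intronic site of MARCHF6, a ubiquitin ligase of the endoplasmic reticulum, at chr5:10432595-10433193 with scores of 50.05 and 56.86. Both Input lists named an intronic site of CDH12 at chr5:22022688-22023045 (58.65 and 52.54). They also named chr5:8461138-8461594 in an exon of lncRNA genes that include MIR4458HG (54.88 and 98.24), and chr5:29374664-29375596 in an intron of LINC02064 (52.12 and 92.23). The remaining ones were chr5:36857866-36858321, 18448 bp from the cohesin loader gene NIPBL (50.8 and 51.87), and chr5:44188312-44189003, 111244 bp from the growth factor gene FGF10 (50.8 and 60.93).

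The last 3 sites lay beside the centromere between 49.6 and 49.7 Mb. They included the 2 highest scores among the members of each Input list. At chr5:49666083-49667430 the scores were 795.49 in replicate 1 and 283.19 in replicate 2, at chr5:49656211-49661915 they were 253.3 and 434.6, and at chr5:49601072-49603141 they were 165.07 and 141.66. No LacZ list named them, and the protein-coding gene nearest to each was EMB, which lies past the 50 Mb boundary. The pentamer GGAAT or its complement ATTCC covered 54.5% to 56.2% of their bases, beside 1.16% of the first 50 Mb as a whole. Each of these peaks also ran into 10 to 91 unknown bases of the assembly. Such pentamers are the unit of the human satellites II and III.

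**Figure D4:**
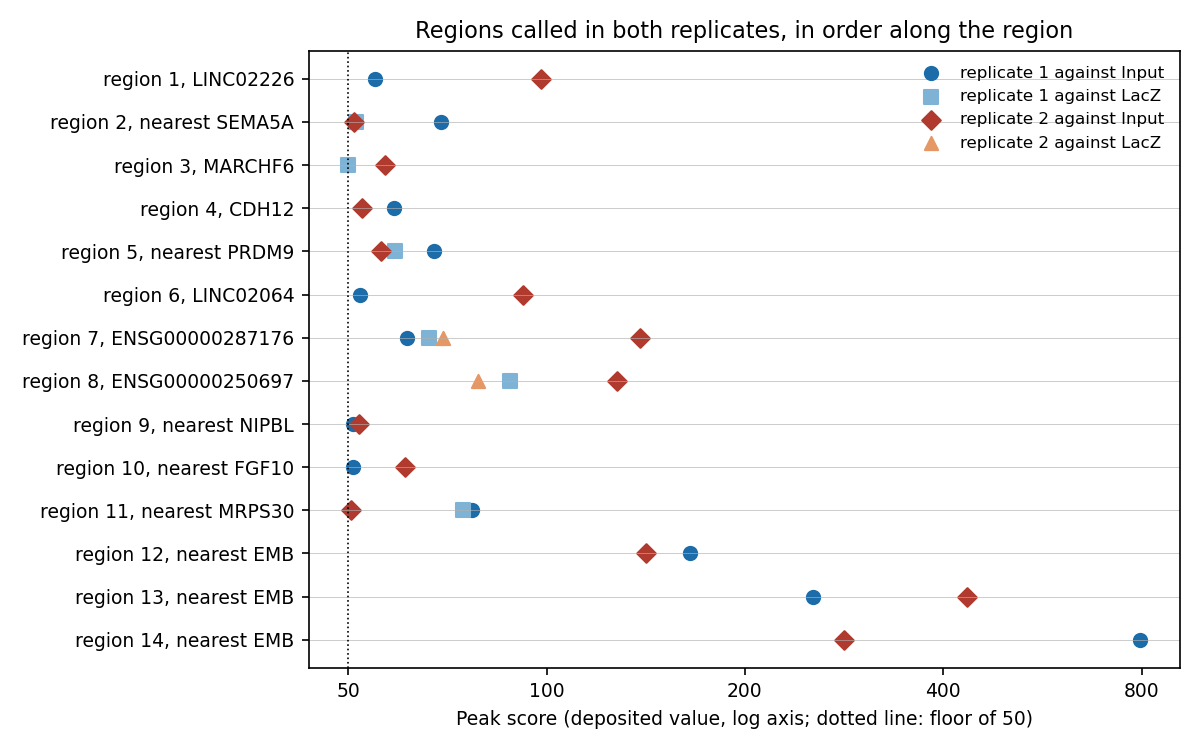
Scores of the 14 sites called in both replicates, in order along chr5, on a log axis. Each symbol is the peak of 1 list, an absent symbol means that the list had no peak there, and the dotted line is the floor of 50. The 3 satellite sites at the bottom have scores from 141.66 to 795.49 and no symbol of a LacZ list.

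Some of the highest scores among the members came from 1 replicate only. In replicate 1 the peak at chr5:31363833-31364558, between CDH6 and DROSHA, scored 222.24 against Input and 254.51 against LacZ and was absent from replicate 2. It holds 58 copies of GGTTGG, counted with overlaps, and a stretch of them is printed above. In LacZ list 1 the next were chr5:32881051-32881726 (133.12) and chr5:10841495-10841906 (129.97), both outside genes. In replicate 2, the peak in an intron of GHR, the growth hormone receptor gene, at chr5:42709779-42710368 scored 165.08 against Input and 87.25 against LacZ, and neither replicate 1 list had it. It was followed against LacZ by chr5:37081772-37082698 beside the pseudogene RPS4XP6 (82.56) and by the site in ENSG00000250697.

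Sequence features that the choice of members did not use were compared over the central 400 bases of each peak and over 124565 windows of 400 bases that tile the first 50 Mb. Runs of at least 12 A or 12 T were in 14.4% of members in Input list 1 (95% exact binomial interval 11.3% to 18.03%), 18.4% in LacZ list 1 (14.9% to 22.5%) and 14.3% in Input list 2 (12.1% to 16.6%). In LacZ list 2 they were in 10 of 26 (38.5%, 20.2% to 59.4%). Such runs were in 6.33% of the windows. On the rest of chr5 they were in 21.5%, 22.3%, 21.7% and 42.9% of peaks and 8.19% of windows, so they were more frequent in peaks than in windows there too. These intervals cover counting error only.

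Tandem runs of at least 6 CA or TG were in 2.48%, 2.84% and 3.87% of members of the large lists, beside 1.89% of windows. Tandem runs of at least 4 GGAAT or ATTCC were in 3 members of each Input list and in 0.0153% of windows. At least 3 copies of GGTTGG or CCAACC were in 1 member of each large list, beside 0.0610% of windows. These motifs were chosen after the sequences had been seen. Median GC content was 36.5%, 37.7%, 37.1% and 37.7% in the order of the lists, beside 39.2% over the first 50 Mb and 37.7%, 40.6%, 37.8% and 37.4% for peaks on the rest of chr5.

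Members were compared by blastn with the sequences of the capture probes and of the 9 annotated transcripts of LINC01767. No member matched any of the 9 CRLM1 probes at an E value of at most 0.01. That is 0 of 444, 423, 981 and 26 members, which allows shares of up to 0.676%, 0.709%, 0.306% and 11.5%. At an E value of at most 0.1 there was 1 match, of 16 bases of probe CRLM1-5 (capitals) with a peak of Input list 2 at chr5:12214745-12215166.
CRLM1-5: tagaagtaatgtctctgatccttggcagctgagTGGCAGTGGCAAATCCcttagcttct
Matches to the annotated LINC01767 transcripts were in 6.98%, 9.46%, 8.36% and 19.2% of members (5 of 26 in the last list), and in 8.16% of the windows. On the rest of chr5 they were in 6.64%, 13.0%, 12.8% and 14.3% of peaks. Each of the 170 matches fell in the last 300 bases of the transcript LINC01767-205, with a median length of 70 bases and a median identity of 77.6%. This transcript has 1568 bases and is the longest annotated one, and the other transcripts matched no member. The paper describes CRLM1 as a shorter RNA, and whether that RNA holds the matched bases was not tested. In the 3 large lists the share of members with a match was thus near that of the windows, whose share lies inside the 95% exact binomial intervals of 4.79% to 9.76%, 6.84% to 12.7% and 6.70% to 10.3%.

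By annotation class, members of the 3 large lists were more often intergenic and less often intronic than peaks on the rest of chr5, as were the bases themselves. Intergenic midpoints made up 45.5%, 41.1%, 46.9% and 11.5% of members in the order of the lists, beside 34.4%, 30.3%, 37.1% and 28.6% on the rest of chr5. Of the bases, 47.5% were intergenic on the first 50 Mb and 34.2% on the rest. Introns held 46.2%, 47.8%, 43.6% and 57.7% of members and 43.0% of the bases, beside 55.7%, 55.5%, 53.4% and 57.1% of peaks and 53.8% of the bases on the rest. The 3 intergenic peaks of 26 in LacZ list 2 have an exact interval of 2.45% to 30.2%. Of the members in the same order, 18.2%, 12.1%, 19.2% and 7.69% lay over 500 kb from any protein-coding gene.

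A gene had a peak where any peak touched its body or the 5 kb upstream. Of 729 genes that start on the first 50 Mb, 129 (17.7%), 151 (20.7%), 218 (29.9%) and 26 (3.57%) had one in the order of the lists. Over all annotated genes the shares were 7.25%, 10.3%, 12.1% and 0.495%, and on the rest of chr5 11.9%, 13.7%, 16.2% and 0.512%. A peak in both Input lists was found for 92 genes (12.6%, beside 3.81% of all genes), and in both LacZ lists for 14 (1.92%, beside 0.239%). With any list, 102 of 155 protein-coding genes and 112 of 284 lncRNA genes had a peak. The protein-coding share was 65.8%, beside 44.8% on the rest of chr5 and 34.8% over the genome. Longer genes had more distinct peaks, with a Spearman rho of 0.585 across the 729 genes, so values per 100 kb are given beside counts. For a gene these are per 100 kb of its body together with the 5 kb upstream, whereas gene lengths are given without the 5 kb. The average of the first 50 Mb was 3.20 distinct peaks per 100 kb.

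The genes with the most peaks were long adhesion genes. CDH18 had 57 distinct peaks on 1105 kb, with 21, 19, 30 and 1 in the order of the lists. CDH12 had 43 on 1103 kb, with 10, 7, 30 and 1. CTNND2, which encodes delta-catenin, a partner of cadherins at cell junctions, had 41 on 933 kb, with 15, 12, 21 and 0. Per 100 kb these are 5.14, 3.88 and 4.37 distinct peaks. The 3 genes were above the average density of the first 50 Mb, which takes in the sparse bins from 46 to 50 Mb. CDH18 and CDH12 lie between 18 and 31 Mb, where the Input lists were densest, and were not compared with that surrounding. In each of the 3 genes Input list 2 had the most peaks. It is also the largest list, with 981 of the 1874 members, so this is not a trait of these genes.

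Further genes with many distinct peaks mixed lncRNA and protein-coding genes. The lncRNA gene LINC02196 had 21, FBXL7 (an F-box protein) 16 and PURPL (a lncRNA induced by p53) 16. CDH9 had 15, ENSG00000250697 and SEMA5A (a semaphorin) 13 each, and PDZD2 and PLCXD3 12 each. ADCY2 (an adenylyl cyclase), DROSHA (the nuclease that starts microRNA maturation) and the lncRNA gene ENSG00000250453 had 11 each, as did LINC02109 and LINC02223, which tied with them. Per 100 kb DROSHA had 8.05, CDH9 6.11 and PLCXD3 5.75, whereas SEMA5A, PDZD2 and ADCY2 had 2.52, 2.52 and 2.51, below the average. PURPL had 1, 3, 13 and 0 peaks in the order of the lists, so most of its peaks came from Input list 2.

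**Figure D5:**
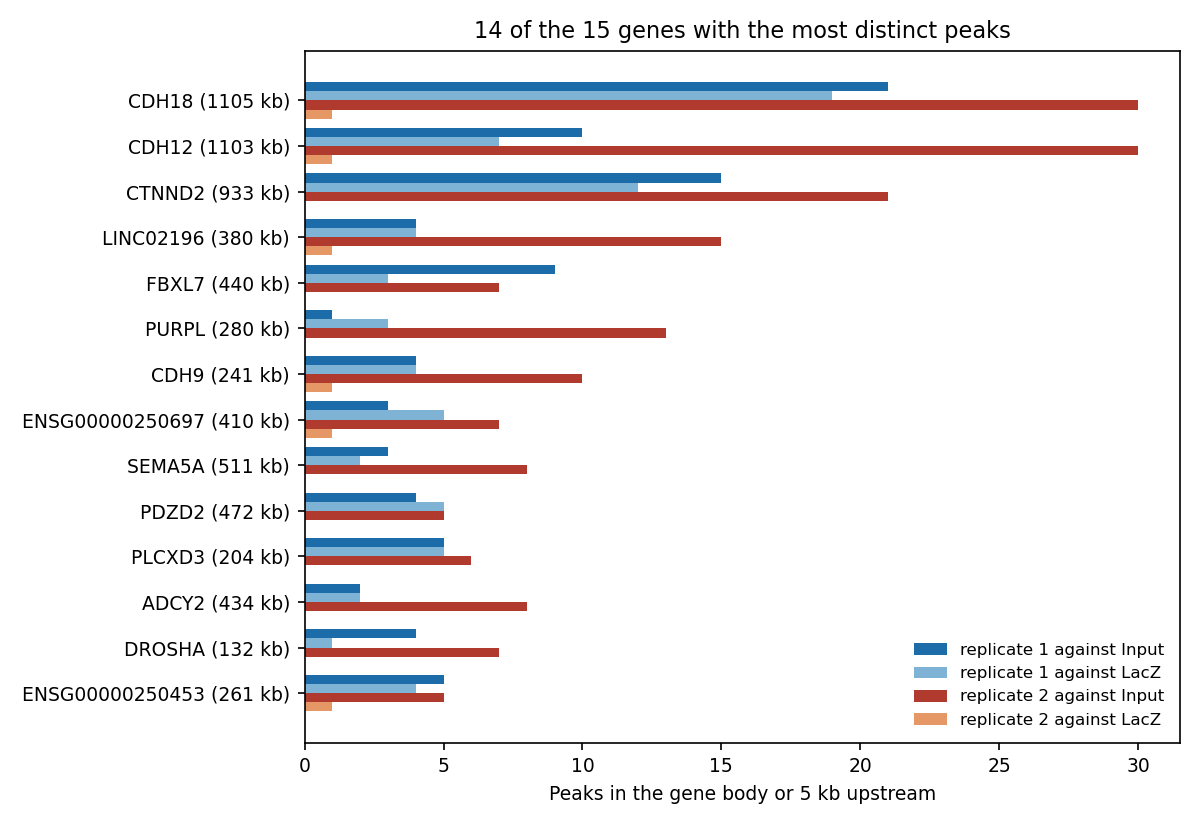
Number of peaks in the gene body or 5 kb upstream (horizontal axis) for 14 of the 15 genes with the most distinct peaks, in order from the top, with the gene length in brackets. Each colour is 1 list. CDH18, CDH12 and CTNND2 at the top have 30, 30 and 21 peaks in Input list 2.

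Counts for the gene lists are read against all 155 protein-coding genes of the stretch, of which 36.1%, 44.5%, 56.8% and 7.74% had a peak in the order of the lists, 30.97% in both Input lists and 65.8% in any. All 6 genes of the cadherin and delta-catenin list had a peak in both Input lists, while 5 had one in LacZ list 1 and 3 in LacZ list 2. Of these genes, CDH18, CDH12, CTNND2 and CDH9 are at least 176 kb long. Among the 24 protein-coding genes of the stretch at least that long, 21 had a peak in both Input lists. In LacZ list 1 it was 23 of them, and in LacZ list 2 it was 5. In the large lists these long cadherin and delta-catenin genes are thus near genes of like length. CDH10, with 10 distinct peaks on 158 kb, had 1, 2, 8 and 0 in the order of the lists. CDH6, the protein-coding gene nearest to the site in all 4 lists, had 1, 0, 2 and 0. Apart from CDH18, CDH12 and CTNND2, CDH9 had 4, 4, 10 and 1. The CDH18 peak of LacZ list 2, at chr5:20358651-20359251, scored 63.82 there and 146.01 against Input.

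The list of 12 cytokine, hormone and growth factor genes also counts the complement genes C6, C7 and C9. Of the 12, 10, 10, 8 and 1 had a peak in the order of the lists, 8 of them in both Input lists and 11 in any. The counts in Input list 2 and LacZ list 2 are near the shares of all protein-coding genes given above. Those in the replicate 1 lists, in both Input lists and in any list are above these shares. Longer genes had more distinct peaks (rho of 0.585 across the 729 genes), and this list was not compared with genes of like length. The part of gene length in these counts was thus not tested. GHR had 1, 2, 6 and 1 peaks, and PRLR, the prolactin receptor gene, had 1, 2, 5 and 0. LIFR and OSMR, receptor genes of the interleukin 6 family, had 2, 1, 2, 0 and 1, 2, 1, 0. The complement genes C6, C7 and C9 had 1, 2, 2, 0, then 2, 2, 2, 0, and 1, 1, 4, 0. NPR3, IL7R, GDNF and FGF10 had at most 2 peaks in a list, and PTGER4 had none.

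Of 10 long genes of guidance, motility and signalling, 8, 10, 10 and 0 had a peak, 8 of them in both Input lists. The list holds long genes by choice. Of all 24 protein-coding genes of the stretch that are at least as long as its shortest member, 21, 23, 24 and 5 had a peak and 21 had one in both Input lists, so its counts are near those of genes of like length in the 3 large lists. DNAH5, an axonemal dynein gene, had 5 peaks in each replicate 1 list and 2 in Input list 2, whereas TRIO, a guanine exchange factor gene, had 1, 2 and 6. MYO10, BASP1 and RAI14 had 6, 8 and 7 distinct peaks, and BASP1 and RAI14 had none in Input list 1. All 10 had a peak in the lists of both replicates against different controls, LacZ list 1 and Input list 2, and none had one in LacZ list 2.

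Of 12 chromatin, telomere, RNA and cell growth genes, 5, 6, 9 and 0 had a peak, 4 of them in both Input lists, which is near the shares of all protein-coding genes. RICTOR, a scaffold of the mTORC2 kinase complex, had 8 peaks, all in Input list 2. DROSHA had 4, 1, 7 and 0. BRD9, a bromodomain subunit of a chromatin remodeller, had 1, 3, 0 and 0, and NIPBL, PRDM9 and SKP2 had 2, 2 and 1 in Input list 2 only. CLPTM1L and NSUN2 had none. The matrix protease genes ADAMTS16 and ADAMTS12 had 1, 4, 6, 0 and 4, 3, 4, 0 peaks. Both are over 176 kb long and so belong to the 24 long genes counted above, nearly all of which had a peak in the large lists. Of 7 solute carrier genes, 2 had a peak, SLC1A3 with 1 in each of the 3 large lists and SLC9A3 with 1 in Input list 2.

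The 14 genes with a peak in both LacZ lists were CDH18, CDH12, LINC02196, CDH9, ENSG00000250697, ENSG00000250453, WDR70, ENSG00000287176, MARCHF6, GHR, TMEM267, LINC02160, NNT-AS1 and GOLPH3. Only ENSG00000287176, ENSG00000250697 and LINC02160 owed this to an overlapping site, and in the others the replicates had their peaks at different places in the gene. MARCHF6, a gene of 86.7 kb, had 9 distinct peaks, which is 9.82 per 100 kb with the 5 kb upstream included. TMEM267 and NNT-AS1, of 39.6 and 31.6 kb, had 8.96 and 8.19 per 100 kb, which rest on only 4 and 3 distinct peaks.

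Gene starts were looked at through short windows. Of 391 RefSeq (GRCh38.p14) promoter windows on the first 50 Mb, which run from 250 bases before to 50 after a start, 4 held a peak in any list, and 1, 2, 2 and 0 in the order of the lists. That is 1.02% in any list, beside 2.27% of all 300-base windows that tile the first 50 Mb and 15 of 1487 promoter windows (1.01%) on the rest of chr5. With 4 windows, nothing is read from these shares about gene starts. MARCHF11-AS1 had a peak in both replicate 1 lists, at chr5:16129047-16129441 with scores of 51.12 and 51.42, and LINC01020 had one in LacZ list 1 at chr5:5033869-5034192 (53.0). In Input list 2, LINC02217 had one at chr5:17436552-17437218 (90.18). CTNND2 had one in the same list at chr5:11588868-11589328 (83.03), which covered the whole window of an internal start of the gene. The 250 bases before that start, at chr5:11588918-11589167 on the minus strand, are shown because they carry this peak, with CG in capitals. They have a GC content of 42.4%.
CTNND2 internal start: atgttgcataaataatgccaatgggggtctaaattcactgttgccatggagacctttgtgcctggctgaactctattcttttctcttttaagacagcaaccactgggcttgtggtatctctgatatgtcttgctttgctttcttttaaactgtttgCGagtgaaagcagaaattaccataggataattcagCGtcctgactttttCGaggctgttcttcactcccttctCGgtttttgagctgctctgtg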

How the data were processed

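ChIRP-seq of CRLM1 in HCT116 cells was analysed from 4 deposited peak lists. Per the labels and the study's methods, the authors trimmed reads with cutadapt, aligned them to GRCh38 with Bowtie2 and called peaks with MACS. That each list sets a CRLM1 library against the Input or LacZ library of the same number comes from the labels. The study's methods describe peaks of the CRLM1 and of the LacZ pull-down, each called against Input. There, only CRLM1 peaks that overlapped no LacZ peak were kept for further work. The lists used here are not that filtered set. MACS2 and a q-value threshold are named in the methods, but the naming of peaks and the lowest score, 50, look like output of an older release, so the version was not settled. The deposited score has no stated scale and was ranked only among the members of each list. The lists hold no read counts, so the depth of the libraries is unknown.

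Positions are 1-based. Gene models were GENCODE release 44, and promoter windows came from RefSeq. Density used ungapped length on chromosomes 1 to 22, X and Y. A shared peak meant at least 1 shared bp. The annotation class was that of the midpoint, in the order coding sequence or UTR, other exon, 5 kb upstream, intron and intergenic. The computations used Python 3.11.15, pandas 2.3.3 and blastn 2.17.0 (word size 11, database size set to 1563245 bases for peaks and windows). The overlap code was tested on simulated data. No test was made, since each list is 1 library against 1 control and peaks are not replicates.

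The members, the 6 gene lists and the choice of stretches were made with earlier results of these data known. Named were the 3 highest scores per list, every site in both replicates, the 5 fullest bins per list and bins without any peak, the 15 genes with the most distinct peaks, up to 30 list genes with a peak, and genes with a peak in both LacZ lists. The CDH18 peak, the genes with a promoter peak and list genes without a peak were named after their values were seen. A gene and a sequence that this rule covers are not reported here. Alternatives concerned score filters, boundaries, bin widths, overlap and gene rules. The share of repeat-masked bases was not computed, because the genome sequence used here has no masking.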

Additional observations from a re-analysis of the deposited data

How the results depend on the processing

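Leaving out replicates aside, 94 alternative values were computed, of which 69 stayed close to the reported value and 25 moved. Close meant within the spread between replicates, the counting interval of a share, or 1.5 times for counts and correlations. Of the 40 results, the gene-list counts had no alternative and the mean ratios only those with a replicate left out. Only density ratios and correlations could change direction, and none did. For the LacZ ratios the spread was the SD of 2 values (1.93), so staying within it says little. The density ratio to the rest of chr5 stayed above 1 in every list under every setting. Set against all other main chromosomes it was 2.93 in Input list 1 and 3.63 in Input list 2. With 1 replicate left out, the mean ratio ran from 2.29 to 3.00 against Input and from 2.17 to 4.90 against LacZ, which are the single lists' own ratios and say nothing on stability.

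With bins of 2 Mb, 100.0% of bins held a peak in both Input lists and 60% in LacZ list 2, where bins of 500 kb gave 23%. The bin correlations fell to 0.416 and 0.375 with bins of 500 kb, and the second to 0.375 without the bins from 46 to 50 Mb. Of the 444 members of Input list 1, 29 had a peak of Input list 2 within 1 kb and 159 within 10 kb. Among peaks with scores not below the median of their list, 4 were shared. Of the 423 members of LacZ list 1, 1 was shared with an overlap of at least 50% of both peaks and 11 within 10 kb. Counts within 1 or 10 kb rise with peak density, and they were not made on the rest of chr5 or genome-wide. They are thus not read as replicates naming nearby sites. An alternative chosen after seeing the data, leaving out peaks above 49 Mb, gave 9 and 2 shared peaks.

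Among protein-coding genes only, 56, 69, 88 and 12 had a peak in the order of the lists, and peaks not below the median score left 82 and 84 genes in the replicate 1 lists. The same score filter gave an intergenic share of 43.6% in Input list 2, and median GC contents of 37.1%, 37.9% and 37.2% in Input list 1, LacZ list 1 and LacZ list 2. An E value of at most 0.1 gave 1 probe match in Input list 2. The cause of these differences was not tested. No paired analysis was possible because no result comes from a test and each list already pairs the libraries of 1 number. The share of repeat-masked bases was not run. With 2 replicates and no read counts, no interval covers the variation between cultures.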
